A study of Mus musculus with 8 samples.

Results

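The genes described here are grouped as regulators of pre-mRNA splicing. They comprise all symbols of the deposited count tables for the SR proteins (Srsf genes), the hnRNP proteins, the CLK kinases (Clk1 to Clk4), the LUC7-like proteins and the RNA-binding motif (RBM) proteins, together with Leng8, Nktr, Ogt, Pnisr, Ddx5, Ddx17, Tra2a, Tra2b and Son. The symbol rule took 86 of 25526 genes, and 81 of these passed the low-count filter and were tested. By family these were 12 of 13 SR genes (Tra2a and Tra2b included), 4 of 4 CLK genes, 3 of 3 LUC7-like genes, 20 of 20 hnRNP genes, 35 of 39 RBM genes and 7 of 7 of the other added genes. Srsf12, Rbm31y, Rbm44, Rbm46 and Rbm8a2 had at most 33 counts over all 8 libraries and were not tested. The rule reads symbols and no measured value, but it was written with earlier results of these data known, and the genes added by name share no pattern of symbol. The name is wider than splicing for some RBM genes, several of which are known for work in translation, RNA decay or RNA editing. It is also loose for Ogt, an enzyme that modifies nuclear and cytosolic proteins. The same holds for Leng8, described below by a domain shared with mRNA export factors.

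The libraries were bulk RNA-seq of aorta from male mice heterozygous for Fbn1 C1041G (Fbn1C1041G/+), a fibrillin-1 missense allele used to model Marfan syndrome. There were 4 mice at 12 weeks (the young libraries, replicates 1 to 4) and 4 at 2 years (the old libraries, replicates 1 to 4), ages that the study took to stand for growing and growth-arrested aneurysms. All 8 mice carried the Fbn1 change, and mice without it were not analysed here, so a difference between the ages is one between young and old Marfan aorta. Age, aneurysm stage and any handling difference between the groups cannot be told apart.

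SR proteins bind exonic sequences through RNA recognition motifs and draw the splicing machinery to nearby splice sites through domains rich in arginine and serine. CLK kinases phosphorylate those domains and release SR proteins from nuclear speckles, the bodies in which SON, PNISR and other splicing factors gather, while hnRNP proteins often oppose SR proteins at the same exons. Many of these genes control their own output by producing transcripts that keep an intron or take up an exon with a stop codon, so a gene's count can hold RNA that makes no protein. Clk1 and Clk4 are the best known case: a large share of their RNA is kept in the nucleus with introns still in it. In smooth muscle, splicing regulators set the contractile isoforms of many cytoskeletal genes.

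The CLK genes are shown by the splice donors of an intron that GENCODE M21 annotates as retained in all 4, because the 4 genes differed in how far they changed with age. Each sequence gives the last 10 bases of the exon, then the first 6 bases of the intron in capitals, then 14 further intron bases, 5′ to 3′ on the gene's strand, read from the annotated retained-intron transcripts of build GRCm38.
Clk1 (chr1:58419734-58420120, minus strand, intron of 387 nt): agtgcaagatGTATAGaatatttttcaaca
Clk4 (chr11:51273169-51273559, plus strand, intron of 391 nt): agagcaagatGTATAGaatatttttcaaca
Clk2 (chr3:89169703-89170048, plus strand, intron of 346 nt): caagagcgatGTACAAgccaaatcgtaaca
Clk3 (chr9:57758351-57758626, minus strand, intron of 276 nt): caagagcgatGTACAGccacctttcgtaaa
The Clk1 and Clk4 donors matched at 29 of 30 bases and those of Clk2 and Clk3 at 19 of 30, whereas Clk1 matched Clk2 and Clk3 at 14 of 30 each. The intron just upstream is also annotated as retained in all 4 genes, and its donors are less alike. There Clk1 and Clk4 matched at 17 of 30 bases and Clk2 and Clk3 at 16 of 30, and Clk1 matched Clk2 at 7 and Clk3 at 9. The deposited values are 1 count per gene. They do not show how much of a gene's RNA kept this or any other intron, and the sources used here do not say whether intronic reads were counted.

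Total counts ran from 23622803 to 27417541 in the 12-week libraries and from 16251986 to 33880690 in the 2-year libraries. Replicate 3 of the 2-year group stood apart: it was the shallowest and had the highest mitochondrial share. That share was 10.3% of counts, where the other 2-year libraries held 4.14 to 5.94%. Replicate 3 of the 12-week group stood apart in heart muscle transcripts (6 marker genes, summed level of 851.9 CPM, counts scaled to a fixed library total, against a lowest 12-week value of 85.0). Long transcripts were lower relative to short ones at 2 years (difference of -0.43 between the ages in the slope on log2 length of log2 CPM centred on each gene's mean over the 8 libraries; SD 0.0606 in young and 0.104 in old libraries, n = 4; two-sided exact permutation p = 0.0286, the smallest that 70 assignments allow). Values of named genes are therefore also given with an offset for transcript length and GC share where it moved a fold change by over 1.5 times or changed a call. Fbn1 itself was counted in every library, at 822.4 ± 71.51 CPM at 12 weeks and 483.7 ± 103.6 CPM at 2 years (log2 fold change -0.77, edgeR adjusted p = 0.00309, or 0.16 and not called with the offset). The cell makeup also differed. Summed macrophage markers were at 463.2 to 644.6 CPM at 12 weeks and 1946 to 2558 at 2 years, with 8 of 8 higher, and smooth muscle markers at 29512 to 35151 and 16748 to 25672 CPM, with 4 of 6 lower. Markers of B and plasma cells went from a median of 1.559 to 527.5 CPM, of T and NK cells from 3.56 to 42.27 and of red blood cells from 600.4 to 2398, each with 5 of 5 higher. In bulk samples fewer cells of a type and less RNA per cell cannot be told apart, and the part of cell makeup in the results was not tested.

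More splicing regulators were lower than higher at 2 years. Of the 81 tested, 45 were lower (55.6%) and 8 higher (9.88%), with an adjusted p below 0.05 in edgeR's quasi-likelihood test over all genes; among all 13978 genes tested 26.2% were lower and 25.8% higher. The median log2 fold change was -0.48 for these genes and -0.01 for all genes (quartiles -0.52 and 0.49). At least 2-fold falls numbered 26 and at least 2-fold increases 3, where the shares over all genes were 10.6% and 11.7%. In 43 genes every 2-year library was below every 12-week library, and in 10 genes every one was above (25.3% and 24.3% of all genes), while 28 genes overlapped. Of the 72 tested genes that the symbol patterns alone take, without the 9 added by name, 37 were lower (51.4%) and 8 higher (11.1%). With the length and GC offset 48 of the 81 were lower and 8 higher, 41 of the 45 remaining lower, beside 27.7% and 23.0% of all genes. Without replicate 3 of either age 45 were lower and 5 higher, beside 23.7% and 22.7%, and 43 of the 45 lower genes were the same. The 8 higher genes became 4 without 12 weeks replicate 3 or replicate 4 and 5 without 2 years replicate 1 or replicate 2. Together these genes took 1.06 to 1.16% of all counts in the 12-week libraries and 0.66 to 0.713% in the 2-year libraries. Of this, the 7 genes added by name besides Tra2a and Tra2b held 0.336 to 0.418% at 12 weeks and 0.0956 to 0.109% at 2 years. The hnRNP genes held 0.369 to 0.417% and 0.29 to 0.353% in the same order. The RBM genes held 0.145 to 0.155% and 0.114 to 0.142%, and the SR genes 0.128 to 0.147% and 0.0821 to 0.0992%.

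**Figure D1:**
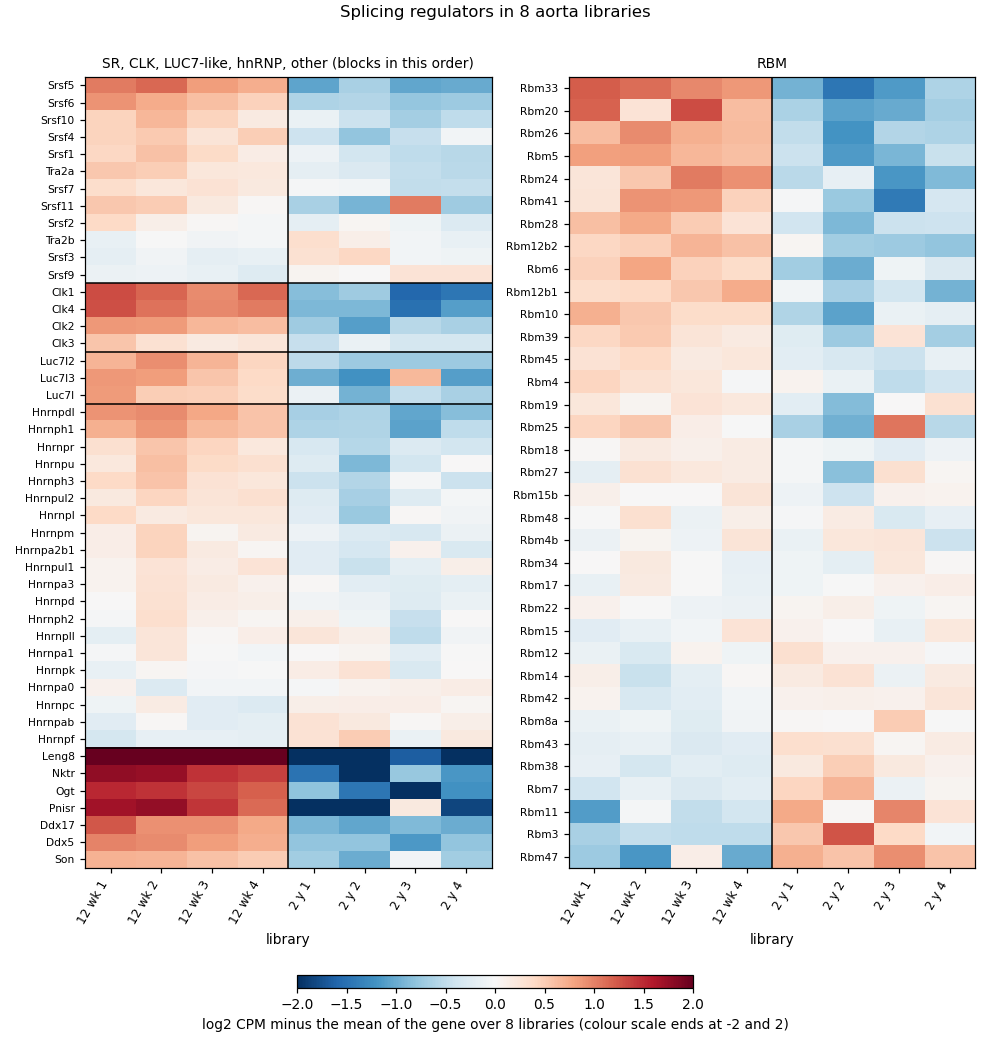
Heat map of log2 CPM of each tested splicing regulator (rows, in blocks by family) in each library (columns), relative to the gene's mean over the 8 libraries, with the colour scale ending at -2 and 2. Most rows are higher in the 4 columns at 12 weeks, and Srsf11, Luc7l3, Rbm25 and Pnisr stand out in replicate 3 at 2 years.

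The families did not move to the same extent. The median log2 fold change was -2.64 in the 7 added genes, -1.84 in the CLK genes, -1.11 in the LUC7-like genes, -0.62 in the SR genes, -0.34 in the hnRNP genes and -0.21 in the RBM genes. The 7 added genes were taken into the set with earlier results known, so their place in this order may restate that choice. All 7 of them, all 4 CLK genes and all 3 LUC7-like genes were lower. Of 12 SR genes 7 were lower (58.3%) and 1 higher (8.33%), of 20 hnRNP genes 10 and 1, and of 35 RBM genes 14 (40.0%) and 6 (17.1%), beside 26.2% lower and 25.8% higher over all genes. With the offset 19 RBM genes were lower and 7 higher, with a median of -0.44. The differences between families were not tested.

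**Figure D2:**
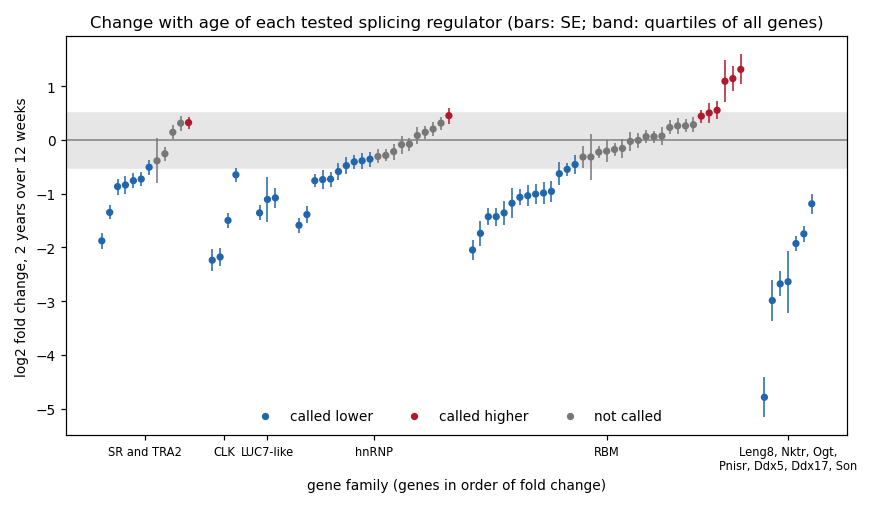
Log2 fold change (2 years over 12 weeks, points) with its SE (bars) for each tested splicing regulator, ordered within its family; the line and grey band are the median (-0.01) and quartiles (-0.52 and 0.49) of all genes. Leng8 lies lowest at -4.79 and Rbm47 highest at 1.31.

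Among the SR genes Srsf5 fell furthest. Srsf5 is an SR protein whose mRNA responds quickly to growth signals. Its level was 346.8, 372.3, 299.2 and 277.6 CPM in the young libraries, given here and elsewhere in the order of replicates 1 to 4, and 80.34, 107.1, 81.67 and 83.36 CPM in the old ones. The lowest young library was more than 2-fold above the highest old one. The mean was 3.68-fold lower (log2 fold change -1.88, SE 0.15, edgeR adjusted p = 4.07e-06). Per kilobase of transcript Srsf5 ranked 3 among the splicing regulators at 12 weeks (206.6 CPM per kb) and 11 at 2 years (56.2 CPM per kb).

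Srsf6, a close relative of Srsf5, stood at 203.2, 182.5, 165.4 and 149.6 CPM at 12 weeks and 71.47, 72.67, 64.11 and 66.0 CPM at 2 years, with no overlap (log2 fold change -1.35, SE 0.13, edgeR adjusted p = 1.28e-05). Smaller falls were seen in Srsf10 (-0.87), an SR protein that represses splicing when dephosphorylated, in Srsf4 (-0.84), in Srsf1 (-0.76), the founding SR protein, in the exon activator Tra2a (-0.73) and in Srsf7 (-0.51). Their edgeR adjusted p ran from 0.000689 to 0.00982, and none of these groups overlapped. Srsf2, the SC35 marker protein of speckles, was at 104.3 ± 14.29 and 87.27 ± 8.197 CPM (SD, n = 4) and was not called (log2 fold change -0.26, edgeR adjusted p = 0.121), but was lower with the offset (-0.67, adjusted p = 0.000508). Tra2b (0.14) and Srsf3 (0.31), the smallest SR protein, were not called. Srsf9 was higher (33.34 ± 1.564 and 41.56 ± 4.152 CPM, log2 fold change 0.32, edgeR adjusted p = 0.0357). Its transcript has 1162 nt, and with the offset the value was -0.25 and not called (adjusted p = 0.102). The call was also lost on leaving out any single library other than 2 years replicate 1 or 2. Srsf3 was called higher without 2 years replicate 3 or without replicate 4.

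All 4 CLK kinase genes fell. Clk1 was at 124.2, 112.4, 96.24 and 111.4 CPM in the young libraries and at 27.9, 30.79, 16.91 and 18.44 CPM in the old ones. Clk4, its nearest relative, was at 42.14, 36.43, 33.44 and 35.32 CPM and at 9.158, 9.126, 6.047 and 7.916 CPM in the same order. Neither gene had an old library near the young ones, and in both the lowest old value was in replicate 3. The log2 fold change was -2.24 (SE 0.2, edgeR adjusted p = 8.01e-06) for Clk1 and -2.18 (SE 0.16, adjusted p = 2.19e-06) for Clk4. Clk2 was at 41.01, 40.78, 35.47 and 34.63 CPM against 13.72, 10.41, 15.28 and 14.27 CPM (a log2 fold change of -1.5 with an SE of 0.14, edgeR adjusted p = 1.28e-05). Clk3 had the smallest fall of the family, from 44.85 ± 5.383 to 28.6 ± 2.831 CPM (SD, n = 4; log2 fold change -0.65, SE 0.13, edgeR adjusted p = 0.00147). All 4 remained lower with the offset, at -2.73, -2.61, -1.69 and -0.65.

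Ratios between related genes show unequal changes. The log2 ratio of Clk1 to Clk4 was 1.59 ± 0.06 at 12 weeks and 1.51 ± 0.23 at 2 years, with overlapping ranges (1.52 to 1.66 and 1.21 to 1.75). That of Clk2 to Clk3 went from -0.24 ± 0.11 to -1.1 ± 0.37, and that of Clk1 to Clk3 from 1.31 ± 0.08 to -0.32 ± 0.4, neither with overlap. Clk1 was thus above Clk3 in every young library and near or below it in the old ones. Such ratios were taken for 12 pairs of related genes, chosen after their values were seen and given without a test, and 8 of the 12 did not overlap between the ages. How often the ratios of other gene pairs separate in this way was not counted. Among single genes, 25.3% had every old library below every young one and 24.3% had every one above, while 7051 of 13978 overlapped. A ratio was counted as separate in either direction, so both of these shares together are the closer comparison. On the log2 scale Tra2a to Tra2b moved by -0.86 (-1.28 with the offset), Srsf7 to Srsf3 by -0.82 (-0.89) and Srsf5 to Srsf6 by -0.53 (-1.03). Hnrnpdl to Hnrnpd moved by -1.31 (-1.93 with the offset), Hnrnph1 to Hnrnph2 by -1.17 (-1.5) and Srsf1 to Srsf9 by -1.08 (-0.28). The ratios of Ddx17 to Ddx5 (-0.16, or 0.03 with the offset), Luc7l2 to Luc7l (-0.26) and Hnrnpa2b1 to Hnrnpa1 (-0.31) overlapped between the ages.

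Of the genes added by name, Leng8 had the lowest log2 fold change. Leng8, a nuclear protein with a domain shared with mRNA export factors, was at 532.0, 341.9, 319.9 and 300.7 CPM in the young libraries and at 9.871, 6.909, 21.46 and 16.25 CPM in the old ones. Every old library was far below every young one, and the mean was 27.6-fold lower (log2 fold change -4.79, SE 0.37, edgeR adjusted p = 6.46e-06). Among splicing regulators ranked per kilobase, Leng8 went from rank 14 to rank 73. Nktr, a large cyclophilin with an arginine- and serine-rich tail, was at 182.2, 178.2, 144.7 and 137.4 CPM against 19.09, 6.951, 31.47 and 23.82 CPM (a log2 fold change of -2.99 with an SE of 0.38, edgeR adjusted p = 0.000184). The young libraries lay within a narrow range and the old ones spread more than 4-fold.

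Ogt, the enzyme that attaches O-linked N-acetylglucosamine to nuclear and cytosolic proteins, was at 269.9, 258.6, 240.3 and 219.0 CPM at 12 weeks and 54.69, 35.01, 23.34 and 40.9 CPM at 2 years. The groups were far apart (log2 fold change -2.68, SE 0.23, edgeR adjusted p = 5.57e-06). Oga, the enzyme that removes the same sugar, fell less, from 127.0 ± 5.134 to 66.1 ± 13.8 CPM (SD, n = 4; log2 fold change -0.94, edgeR adjusted p = 0.00048). The RNA helicases Ddx5 and Ddx17, which unwind RNA during splicing and microRNA processing, fell together. Ddx5 was at 1493, 1452, 1344 and 1247 CPM and then at 437.1, 434.5, 337.9 and 436.3 CPM (a log2 fold change of -1.75, edgeR adjusted p = 5.54e-06). It had the highest level per kilobase of all splicing regulators at 12 weeks (388.8 CPM per kb), and at 2 years that place was held by Hnrnpa2b1 (176.0 CPM per kb). Ddx17 fell from 662.2 ± 97.97 to 174.4 ± 8.664 CPM (SD, n = 4; log2 fold change -1.93, edgeR adjusted p = 2.51e-06).

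Son, a scaffold protein of nuclear speckles, fell from 730.5 ± 43.15 to 321.3 ± 94.44 CPM (SD, n = 4; log2 fold change -1.19, SE 0.19, edgeR adjusted p = 0.000433). Its transcript has 8731 nt, and with the offset the value was -0.58 (adjusted p = 0.0203). Pnisr, a speckle protein with an arginine- and serine-rich domain, was at 265.1, 280.4, 223.7 and 182.4 CPM at 12 weeks and 17.86, 18.51, 94.35 and 23.12 CPM at 2 years (log2 fold change -2.64, SE 0.58, edgeR adjusted p = 0.00564). Replicate 3 was the high library, and without it the value was -3.59 (adjusted p = 1.4e-06).

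**Figure D3:**
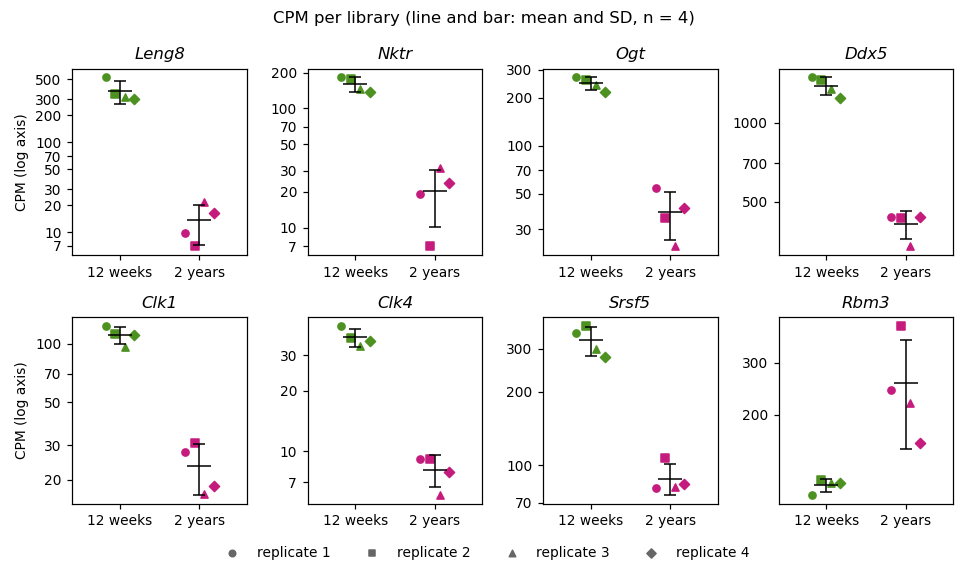
CPM (log axis) in each library for 8 splicing regulators, with the mean and SD of each age (n = 4). The 2 ages are separate in all 8 panels, lower at 2 years in Leng8, Nktr, Ogt, Ddx5, Clk1, Clk4 and Srsf5 and higher in Rbm3, whose old libraries range from 161.3 to 400.2 CPM.

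The LUC7-like proteins belong to the U1 snRNP and help choose 5′ splice sites. Luc7l2 was at 254.8, 302.0, 253.8 and 212.8 CPM at 12 weeks and 110.5, 95.61, 95.97 and 95.62 CPM at 2 years, where 3 old libraries were nearly equal and replicate 1 was slightly higher (log2 fold change -1.36, SE 0.14, edgeR adjusted p = 1.77e-05). Luc7l fell from 44.03 ± 6.899 to 20.83 ± 5.041 CPM (SD, n = 4; log2 fold change -1.08, edgeR adjusted p = 0.00055). Luc7l3 overlapped: it was at 201.9, 198.2, 163.3 and 146.2 CPM at 12 weeks and 56.43, 47.94, 173.2 and 51.63 CPM at 2 years. Its call was marginal (log2 fold change -1.11, SE 0.41, edgeR adjusted p = 0.0438) and was absent in 10 of 16 alternatives, the offset among them (-0.84, adjusted p = 0.175). Without 2 years replicate 3 the value was -1.77 (adjusted p = 1.06e-05).

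Luc7l3 was 1 of 4 splicing regulators that 2 years replicate 3 held at more than 3 times the mean of the other old libraries. The ratio was 4.76 for Pnisr, 3.5 for Srsf11, 3.42 for Rbm25 and 3.33 for Luc7l3. The share of all genes past 3 times was not counted. SRSF11 and RBM25 are, like LUC7L3 and PNISR, proteins with long arginine-rich stretches found in speckles. These 4 genes were picked by their ratio, and other SR, LUC7-like and speckle genes did not all share it. The ratio was 1.66 for Son but 1.04 for Srsf2, 0.949 for Srsf4 and 0.954 for Luc7l2. Srsf11 was at 118.4, 116.7, 93.17 and 82.73 CPM at 12 weeks and 51.92, 42.73, 168.9 and 50.21 CPM at 2 years. Rbm25 was at 197.3, 213.7, 160.4 and 145.7 CPM and then at 93.66, 75.02, 306.4 and 99.82 CPM. In both genes replicate 3 was the highest of all 8 libraries and the other old libraries were below all young ones. Neither was called with all libraries (log2 fold changes -0.39 and -0.32, edgeR adjusted p = 0.46 and 0.546), and both were lower without 2 years replicate 3 (-1.09 and -1.0, adjusted p = 0.000274 and 0.000621). Rbm39, chosen after its values were seen, was at 161.2, 115.7, 231.9 and 119.2 CPM in the old libraries, with replicate 3 again the highest and above 2 of the young ones (log2 fold change -0.63, edgeR adjusted p = 0.0257). It was not called without 12 weeks replicate 1 or 2 or without 2 years replicate 2 or 4. In all, 9 of 81 splicing regulators (11.1%) were at least 1.5 times higher in that library than in the mean of the other old libraries, and so were 13.4% of all genes. Depth and mitochondrial share set the same library apart. Its summed markers were also the highest of the old group for fibroblasts (3245 CPM, 2-year median 1702), fat (293.3, median 167.0) and macrophages (2558, median 2160). Those of the other cell types looked at were highest in other old libraries. The part of these traits in the values above was not tested.

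**Figure D4:**
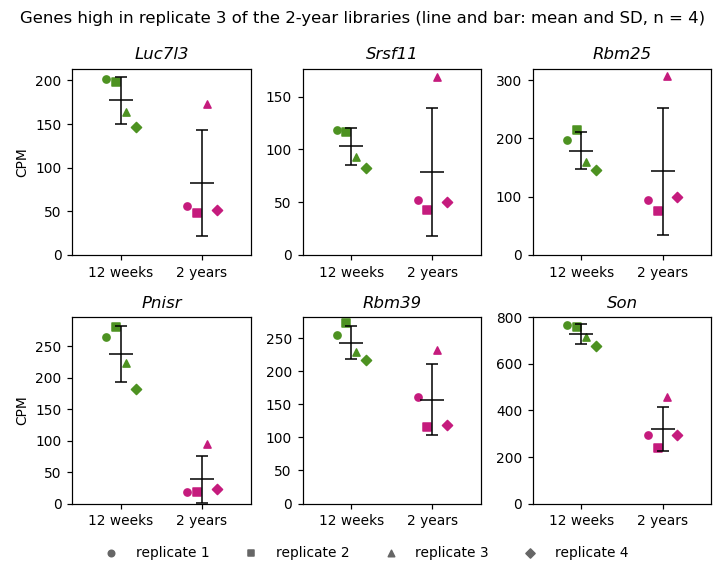
CPM in each library for 6 splicing regulators that were high in 2 years replicate 3 (triangle), with the mean and SD of each age (n = 4). In the old group the triangle is the highest point in every panel, from 94.35 CPM in Pnisr to 457.4 CPM in Son.

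Of the hnRNP genes, the ones that fell furthest were Hnrnpdl and Hnrnph1. Hnrnpdl, an AU-rich element binder that controls its own splicing, was at 223.5, 231.7, 203.7 and 177.3 CPM at 12 weeks and 75.66, 77.66, 57.93 and 66.07 CPM at 2 years (log2 fold change -1.59, SE 0.14, edgeR adjusted p = 7.98e-06). Hnrnph1, which binds runs of guanine, was at 221.2, 247.9, 212.2 and 199.6 CPM and then at 88.16, 88.66, 64.44 and 94.68 CPM (a log2 fold change of -1.39 with an SE of 0.15, edgeR adjusted p = 2.57e-05). Both were clearly separate between the ages. Hnrnph3 (-0.73) and Hnrnpul2 (-0.59) were also lower, with edgeR adjusted p of 0.00152 and 0.00596. Hnrnpr (-0.76, edgeR adjusted p = 0.000453) and Hnrnpu (-0.74, adjusted p = 0.00619), the scaffold attachment factor, were lower as counted. The longest annotated coding transcript of Hnrnpr has 21452 nt, and the gene was higher with the offset (0.69, adjusted p = 0.00388). Whether the aorta expressed that form was not tested, and the offset value rests on its length. Hnrnpu with 7640 nt was not called with the offset (-0.24, adjusted p = 0.169).

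Among abundant hnRNP genes, Hnrnpa2b1 had the highest level per kilobase of the family at both ages (231.0 and 176.0 CPM per kb). It was lower by a narrow margin, with overlap (399.1 ± 50.58 and 304.1 ± 42.99 CPM, SD, n = 4; log2 fold change -0.39, edgeR adjusted p = 0.0418). The call was lost without any single library other than 12 weeks replicate 4 or 2 years replicate 3, and with the offset the value was -0.88 (adjusted p = 0.000352). It is named here after its values were seen. The next 3 are the hnRNP genes of highest mean CPM among those not called. Hnrnpk was at 420.3 ± 21.41 and 445.0 ± 75.16 CPM (SD, n = 4; log2 fold change 0.08, edgeR adjusted p = 0.658), Hnrnpa3 at 410.8 ± 30.08 and 330.5 ± 28.96 CPM (-0.31, adjusted p = 0.0543) and Hnrnpab at 221.0 ± 19.41 and 273.2 ± 21.35 CPM (0.31, adjusted p = 0.0558). Hnrnpf was the only hnRNP gene called higher (185.2 ± 11.39 and 252.7 ± 45.63 CPM, log2 fold change 0.45, edgeR adjusted p = 0.024), and not with the offset (0.17, adjusted p = 0.282). That call was lost without 12 weeks replicate 1, 3 or 4 and without 2 years replicate 1 or 2. Hnrnpab was called higher without 12 weeks replicate 2 or 2 years replicate 3, and Hnrnpa3 lower without 2 years replicate 1. Many hnRNP genes have processed pseudogenes of nearly the same sequence, so their counts are uncertain where reads could not be placed.

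The RBM genes moved in both directions. Rbm33 fell from 90.2 ± 9.464 to 21.67 ± 5.205 CPM (SD, n = 4; log2 fold change -2.05, SE 0.18, edgeR adjusted p = 5.89e-06), or by 1.39 on the log2 scale with the offset, its transcript having 9510 nt. Rbm5, a regulator of splicing in apoptosis genes, was at 112.3, 113.6, 100.5 and 96.92 CPM at 12 weeks and 47.1, 28.91, 33.81 and 46.63 CPM at 2 years (log2 fold change -1.43, edgeR adjusted p = 5.51e-05). Rbm26 (-1.43) and Rbm28 (-1.07) fell as well, with edgeR adjusted p of 4.09e-05 and 0.000185. None of these 4 overlapped between the ages.

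Rbm20 and Rbm24 are muscle splicing regulators, and Rbm20 is known for splicing titin in the heart. Rbm20 was at 21.66, 11.51, 23.45 and 14.56 CPM at 12 weeks and 6.077, 4.478, 4.682 and 5.902 CPM at 2 years (log2 fold change -1.74, SE 0.23, edgeR adjusted p = 0.000128). Rbm24 was at 19.3, 23.6, 33.47 and 30.82 CPM and then at 11.13, 14.46, 7.217 and 8.819 CPM (a log2 fold change of -1.36 with an SE of 0.23, edgeR adjusted p = 0.000637). In both genes the highest value was in 12 weeks replicate 3, the library with the most heart muscle transcripts. Rbm20 was nearly as high in 12 weeks replicate 1. Rbm24 was nearly as high in 12 weeks replicate 4, where the summed heart muscle markers were lowest of the young group. The part of heart muscle in these values was not tested. Of the 6 heart muscle markers 3 were lower at 2 years, and their summed level was 85.0 to 851.9 CPM at 12 weeks and 74.33 to 147.2 CPM at 2 years. Without replicate 3 of either age the log2 fold changes were -1.52 and -1.09 and both genes were called (edgeR adjusted p = 0.00119 and 0.00366).

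Of the 6 RBM genes that were higher, Rbm47 and Rbm3 were so in all 16 alternatives. Rbm47, a cofactor of RNA editing by APOBEC1, was at 3.057, 2.233, 5.585 and 2.514 CPM at 12 weeks and 8.416, 7.591, 9.818 and 7.604 CPM at 2 years (log2 fold change 1.31, SE 0.28, edgeR adjusted p = 0.0023). The highest young value was in replicate 3. Summed macrophage markers were also higher at 2 years. Among the young libraries they were highest in replicate 1 (644.6 CPM) and lowest in replicate 3 (463.2 CPM), where Rbm47 was highest. Their part in the Rbm47 value was not tested. Rbm3, a cold-inducible RNA-binding protein, was at 107.3, 120.3, 118.2 and 117.8 CPM and then at 242.1, 400.2, 219.7 and 161.3 CPM (a log2 fold change of 1.14 with an SE of 0.23, edgeR adjusted p = 0.00184). The young libraries were nearly equal and the old ones spread more than 2-fold. Summed red blood cell markers ran from 442.1 to 723.7 CPM at 12 weeks and from 1776 to 7930 CPM at 2 years. Like Rbm3 they were highest in replicate 2 and lowest in replicate 4 of the old group, and their part in the Rbm3 value was not tested. Rbm7 (0.55), Rbm43 (0.44), Rbm38 (0.5) and Rbm11 (1.09) had edgeR adjusted p of 0.00965 to 0.034 and were each lost in some alternatives. Rbm43 was not called with the offset (0.06), and nor was Rbm11 (0.92). Leaving out 1 library ended the call of Rbm7 (2 years replicate 2), of Rbm38 (12 weeks replicate 2, 3 or 4, or 2 years replicate 1 or 2) and of Rbm11 (12 weeks replicate 1, 3 or 4, or 2 years replicate 1 or 3). Rbm11 rests on 170 counts over all libraries.

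Members of the RBM family that were abundant and did not pass the test included Rbm25, Rbm8a, the Y14 subunit of the exon junction complex (55.93 ± 3.029 and 67.82 ± 12.71 CPM, edgeR adjusted p = 0.117), and Rbm42 (44.13 ± 5.254 and 52.68 ± 2.987 CPM, adjusted p = 0.0954), which was called higher without 12 weeks replicate 1. Rbm12b1 and Rbm12b2, and Rbm4 and Rbm4b, are pairs of near-identical genes, and the way the counting divided their reads is uncertain.

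**Figure D5:**
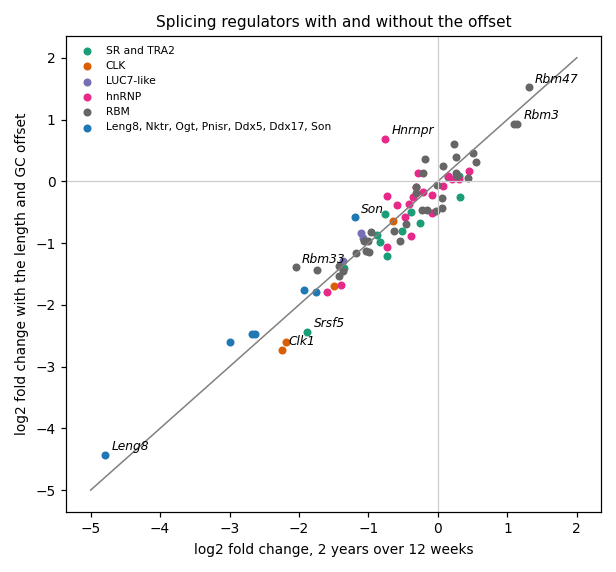
Log2 fold change of each tested splicing regulator without (x axis) and with (y axis) the offset for transcript length and GC share, coloured by family, with the line of equality. Most genes lie near the line; Hnrnpr moves from -0.76 to 0.69, Son from -1.19 to -0.58 and Srsf5 from -1.88 to -2.44.

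Across the 81 genes the Spearman correlation of the log2 fold change with transcript length was -0.29, and 0.04 with the offset. Over 13640 tested protein-coding genes it was -0.42 and 0.04. These are descriptions across genes, which share libraries and are not independent. Annotated retained-intron transcripts gave a weak correlation (-0.18 here, -0.15 over all, or -0.19 and -0.1 with the offset). Of the splicing regulators, 11 of 22 with 0 such transcripts were lower, 22 of 40 with 1 to 3 (55.0%) and 12 of 19 with 4 or more (63.2%). Their median log2 fold changes showed no steady trend, at -0.39, -0.49 and -0.48 in the same order, or -0.67, -0.47 and -0.65 with the offset. Over all coding genes the shares that were lower were 21.3%, 26.8% and 41.0%. The medians there were 0.1, -0.02 and -0.27, or -0.01, -0.06 and -0.2 with the offset. Median transcript length rose in the same order over all coding genes (2998.5, 3268 and 3646 nt), and its part in these shares was not tested.

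Promoters are shown for Leng8 and Srsf5, the added gene and the SR gene that fell furthest, from RefSeq on build GRCm38.p6, which is not the build of the counts. Each window runs from 250 bases before to 50 bases after an annotated start. Capitals mark matches on either strand to 3 of 6 motifs searched, chosen after the values were seen. They are the CCAAT box, the SP1 motif with the letters GGGCGG and an ETS factor motif with the letters CCGGAAG.
Leng8 (chr7:4136806-4137105, plus strand): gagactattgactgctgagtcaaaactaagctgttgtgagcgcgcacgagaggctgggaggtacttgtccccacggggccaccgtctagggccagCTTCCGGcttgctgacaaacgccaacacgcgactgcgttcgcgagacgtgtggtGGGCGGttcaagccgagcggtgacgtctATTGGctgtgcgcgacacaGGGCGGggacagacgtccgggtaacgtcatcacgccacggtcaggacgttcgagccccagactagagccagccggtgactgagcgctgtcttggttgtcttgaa
Srsf5 (chr12:80945249-80945548, plus strand): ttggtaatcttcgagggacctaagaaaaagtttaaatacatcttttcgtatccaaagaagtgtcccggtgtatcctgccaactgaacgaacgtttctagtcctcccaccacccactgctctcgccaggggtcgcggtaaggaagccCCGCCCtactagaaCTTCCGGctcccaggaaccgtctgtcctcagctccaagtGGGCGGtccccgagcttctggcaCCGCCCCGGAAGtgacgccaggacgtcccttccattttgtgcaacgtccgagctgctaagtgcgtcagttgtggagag
In Srsf5 the last SP1 and ETS matches share bases. A promoter was found for 69 of the 81 genes. The CCAAT box was in 20 of the 38 promoters of lower genes (52.6%), in 14 of the 24 of genes not called (58.3%), in 1 of the 7 of higher genes and in 38.5% of the promoters of all tested genes. For lower genes, genes not called and all tested genes, the shares were 65.8%, 66.7% and 63.0% for the SP1 motif and 21.1%, 20.8% and 17.1% for the ETS motif. The cAMP response element with the letters TGACGTCA was in 2 of the 38 promoters of lower genes, in 0 of the 24 of genes not called and in 3.04% of all. The motif of the factor NRF1 was in 1 promoter of a lower gene, 2 of genes not called and 9.8% of all. A TATA box with the letters TATAAA was in 3 promoters of lower genes, 4 of genes not called and 7.32% of all. These counts are small, and none of the differences was tested.

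Other splicing genes were counted in the same way. Of 41 core snRNP proteins, the constant parts of the spliceosome, 16 were higher (39.0%, beside 25.8% of all genes) and 3 lower (7.32%, beside 26.2%), with a median log2 fold change of 0.24. With the offset 10 were higher and 10 lower (24.4% each, beside 23.0% and 27.7% of all genes; median -0.05), so both shares were then near those of all genes. The small proteins Snrpg (1.27, edgeR adjusted p = 0.000231), Snrpe (1.07, adjusted p = 0.000215) and Sf3b6 (0.99, adjusted p = 0.000142) were higher, at 0.46, -0.01 and 0.25 with the offset. Snrnp70, the U1 protein that SR proteins contact, fell from 133.3 ± 23.86 to 47.63 ± 5.767 CPM (SD, n = 4; log2 fold change -1.49, edgeR adjusted p = 2.39e-05), Sf3b1 fell by 1.11 on the log2 scale (adjusted p = 0.000175) and Prpf3 by 0.51 (adjusted p = 0.00968).

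Of 25 further nuclear speckle and SR-related proteins 22 were lower (88.0%) and 0 higher (median -0.98), or 21 and 0 with the offset. Over all genes 26.2% were lower and 25.8% higher, or 27.7% and 23.0% with the offset. Cyclin L2 (Ccnl2), a partner of splicing-related CDK11 kinases, fell from 89.08 ± 14.46 to 14.59 ± 0.9076 CPM (SD, n = 4; log2 fold change -2.61, edgeR adjusted p = 6.65e-07), its relative Ccnl1 by 2.05 and Sugp2 by 3.02 on the log2 scale. Of 26 tested regulators outside the families, 14 were lower (53.8%) and 1 higher (median -0.48), or 15 and 2 with the offset. Ptbp2, a repressor of neuronal exons, fell from 41.82 ± 3.134 to 10.13 ± 2.356 CPM (a log2 fold change of -2.04, edgeR adjusted p = 5.34e-06), and the U-rich sequence binders Tia1 and Tial1 fell by 1.88 and 1.37. Ptbp3 was higher (0.68, edgeR adjusted p = 0.0068).

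Among 10 SR protein kinases, phosphatases and importers 6 were lower and 2 higher, with a median of -0.46, or 4 and 2 with the offset, beside 26.2% lower and 25.8% higher over all genes. The kinases Srpk1 (-1.33), Srpk3 (-1.49) and Prpf4b (-1.55) fell and the phosphatase subunits Ppp1ca (0.97) and Ppp1cc (0.54) rose, with edgeR adjusted p from 1.44e-05 to 0.00336. Of 16 genes of the exon junction complex and nonsense-mediated decay 8 were lower and 3 higher (18.8%), with a median of -0.58, or 10 and 1 with the offset. The decay kinase Smg1 was at -2.57 (-1.51 with the offset, transcript of 15557 nt) and Smg5 at -1.06, with edgeR adjusted p of 1.65e-05 and 0.000236. Magoh (0.72), Eif4a3 (0.36) and Sap18 (0.34) were higher, Sap18 not without 12 weeks replicate 3 or 4, and with the offset Magoh was lower (-0.31, adjusted p = 0.028) and Eif4a3 was not called (-0.1).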

How the data were processed

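Whole aorta of 8 male Fbn1C1041G/+ mice was sequenced as total RNA, with 1 library per mouse and 4 per age. The authors deposited raw counts per gene symbol for each library, per the labels; the build is GRCm39, per the submitters' processing notes. Not given in the sources used here are aligner, counter, annotation, strand and the treatment of intronic reads. The splicing regulators and all lists were chosen with earlier results of these data known, and so was the length and GC offset.

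Counts were analysed in R 4.3.3 with edgeR 4.0.16: filterByExpr defaults, TMM scaling and the robust quasi-likelihood F test on age, over 13978 genes, with Benjamini-Hochberg adjustment over all of them and a threshold of 0.05. CPM use TMM library sizes, and log2 CPM a prior count of 2. The named genes are all tested SR, CLK, LUC7-like and added genes, up to 6 called hnRNP or RBM genes per direction with the smallest p, up to 3 of each not called with the highest CPM, up to 3 called genes per direction of each other list, and Fbn1. A gene that this rule names in another list is not reported here. Genes named beyond these are said to be so or serve as ratio partners. None of the 7 nuclear-retained noncoding RNAs listed was among the genes tested. Protein sequences were not analysed here.

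Transcript length and GC share came by symbol from the longest protein-coding transcript in GENCODE M21 (GRCm38), which matched 97.8% of tested genes and 81 of 81 splicing regulators; the offset removes per-library splines with 4 degrees of freedom on each. The length slope and the mitochondrial share were compared with exact permutation tests over 70 assignments. Pairs of libraries of 1 age differed by 23.48 to 150.5 times counting noise (chi-square per degree of freedom), so none was taken as a copy. Same-numbered libraries did not deviate together (correlations of -0.308 to 0.0511), so the fit is unpaired. The 16 alternatives were RLE scaling, DESeq2 1.42.0, limma 3.58.1 voom, no low-count filter, each of 8 libraries left out, replicate 3 of both ages left out, a replicate block, the offset, and the offset with the block. On simulated counts for the 2 years against 12 weeks comparison over 13891 genes the edgeR fit recovered 67% of 2-fold and 96% of 4-fold changes, with 5.8% of calls false. The simulation changed only a small part of the genes, evenly in both directions, without a trend on length or a shift in cell makeup. Its rates need not hold for the calls reported here.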

Additional observations from a re-analysis of the deposited data

Results flagged for a closer look

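In 12 of 154 groups of 4 libraries (77 named genes at both ages), 1 library lay so far from the rest that its gap to the nearest library, as a share of the group's range, passed Dixon's 95% limit for 4 values. Chance gives about 1 in 20 such groups, and 5.58% of all tested genes and ages passed. For 5 genes the library was 2 years replicate 3: it was high for Luc7l3 (gap share 0.873), Pnisr (0.845), Srsf11 (0.858) and Rbm8a (0.95) and low for Ddx5 (0.976). Replicate 1 at 2 years was high for Luc7l2 (0.974) and Hnrnpa3 (0.851). Replicate 2 at 2 years was high for Srsf5 (0.872) and low for Rbm28 (0.916), and replicate 4 was high for Rbm42 (0.919). At 12 weeks replicate 1 was low for Hnrnpf (0.932) and replicate 2 high for Hnrnpab (0.905).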

How the results depend on the processing

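Of 51 named splicing regulators 34 kept their call and direction in all 16 alternatives, and 36 of the 45 lower and 2 of the 8 higher genes (Rbm3 and Rbm47) were called in every fit. The 8 higher genes became 5 with no low-count filter, 5 without replicate 3 of either age, 4 with the replicate block, 5 with the offset and block, and 4 to 8 with 1 library left out. The 1 higher SR gene (Srsf9) became 0 with no filter, without replicate 3 of either age, with the block, with the offset and with both, and 0 to 1 with 1 library left out. The 1 higher hnRNP gene became 2 with RLE scaling or DESeq2, 0 with the block and 0 to 2 with 1 library left out. Core snRNP genes, 16 higher and 3 lower, became 10 and 10 with the offset and 7 and 9 with the offset and block. The 1 higher gene among other regulators became 2 with no filter, without replicate 3 of either age, with the offset and with the offset and block, and was 1 to 2 with 1 library left out. The 2 higher SR kinase and phosphatase genes became 1 with the offset and block. The 3 higher exon junction and decay genes became 1 with the block, the offset and both. The difference in length slope was -0.394 without replicate 3 of either age (exact permutation p = 0.1, the smallest possible there). The difference in mitochondrial share, 2 years minus 12 weeks in percentage points (exact permutation p = 0.914), was -0.181 without 12 weeks replicate 4, -0.991 to 1.06 with 1 library left out (lowest without 2 years replicate 3) and -0.885 without replicate 3 of either age. With the offset, alone and with the block, log2 fold changes reversed for Srsf9 (-0.25 in both), Hnrnpr (0.69 in both), Hnrnpk (-0.08 and -0.09, and -0.03 to 0.18 with 1 library left out, lowest without 2 years replicate 2), Snrpe (-0.01 and -0.0), Magoh (-0.31 in both), Eif4a3 (-0.1 in both) and Fbn1 (0.16 in both). The cause of these changes was not tested. The replicate block left 41 of the 45 genes lower; the numbers do not pair the libraries. Depth limits Rbm11 most, with 170 counts in all.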
